A study of Caenorhabditis elegans with 4 samples.

Results

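The broad peaks of CBP-1 were the 308 peaks of at least 700 bp in the series-wide peak list of Caenorhabditis elegans embryos, out of 6289 peaks on the 6 nuclear chromosomes. They were chosen by width alone, counted from the first to the last base that the authors gave, with the mitochondrial genome left out. Their width is therefore a description, and no p-value is given for any property of them. They made up 4.90% of the nuclear peaks and held 19.5% of the bases under nuclear peaks, 0.416 Mb in all. The study immunoprecipitated CBP-1 with an affinity-purified rabbit polyclonal antibody and sequenced the DNA (ChIP-seq). It had 2 CBP-1 ChIP samples and 2 samples of input DNA, which had not been immunoprecipitated. Both groups came from wild-type N2 embryos of mixed stages and both sexes at 20 °C, cross-linked in 2% formaldehyde for 30 minutes. Each ChIP replicate had its own peak list, whereas the inputs were not analysed here.

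CBP-1 is the worm relative of mammalian CBP and p300, large proteins that acetylate histones and many other proteins. CBP and p300 do not read a DNA sequence themselves but are brought to enhancers and promoters by transcription factors. In mammals their binding is widely used to find enhancers, and long stretches of binding often mark groups of neighbouring regulatory elements. In the worm, CBP-1 is needed for embryonic cells to differentiate. Since whole embryos were used, strong binding in few cells and weak binding in many cannot be told apart.

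Most of the broad peaks were only a little longer than the threshold, and a few were very long. Widths ran from 703 to 11201 bp with a median of 954.5 bp, and the middle 50% lay between 788.5 and 1363 bp. There were 168 peaks under 1000 bp, 73 from 1000 to under 1500 bp, 24 of 1500 to 2000 bp and 43 above 2000 bp. The 43 longest held 151.9 of the 415.6 kb. The threshold cut through a continuous range. The 5 peaks just inside it were 703, 704, 704, 704 and 706 bp wide, with scores of 34.4, 75.0, 61.7, 16.3 and 62.1. The 5 just outside were 699, 699, 699, 698 and 697 bp wide, with scores of 50.9, 44.0, 44.0, 21.9 and 32.9. Peaks on either side of 700 bp thus had scores in the same range.

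Broad peaks scored higher than most narrower ones, yet width and score were nearly unrelated among the broad peaks themselves. The score is the authors' own and its scale is not known. Its median was 41.1 in broad peaks (lowest 4.47, highest 244) and 8.40 in the 5981 narrower peaks. Across the 308 broad peaks the rank correlation of width and score was 0.10 (Spearman's rho, given as a description, since both come from 1 peak call). The median score was 38.7 under 1000 bp, 55.1 from 1000 to under 1500 bp, 26.0 at 1500 to 2000 bp and 36.9 above 2000 bp, so it did not climb steadily with width. Because of the gap in score, each broad peak was set beside the narrower peak nearest to it in score, taken once only. These 308 matched narrower peaks had a median score of 41.1, the same as the broad peaks, and a median width of 385.5 bp.

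**Figure D1:**
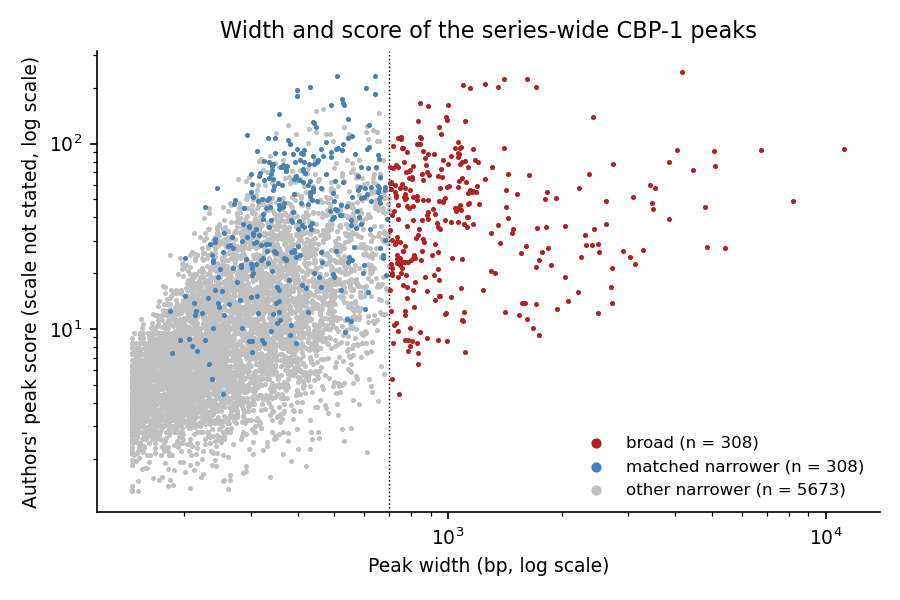
Width in bp (horizontal, log scale) against the authors' score (vertical, log scale) for 308 broad peaks, 308 narrower peaks matched for score and the other narrower peaks; the dotted line marks 700 bp. Scores of broad peaks run from 4.47 to 244 with no steady climb in width, while the matched narrower peaks cover the same scores at widths up to 690 bp.

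The 10 widest and the 10 highest-scoring broad peaks were almost separate sets, with 1 peak in both. The widest peak covered 11201 bp at positions 15060196 to 15071396 of chromosome I, all coordinates being WormBase WS220, and its score of 92.9 ranked 35th among the broad peaks. It lay at the right end of the chromosome, its midpoint 99.96% of the way to the furthest peak end. The second, at 7916835 to 7925040 of chromosome V, was 8206 bp wide with a score of 49.1. The widest peak of chromosome X, at 289851 to 295266, spanned 5416 bp with a score of only 27.5. Those of chromosome IV (11070822 to 11075898, 5077 bp), III (2497064 to 2501906, 4843 bp) and II (8288322 to 8292768, 4447 bp) scored 91.05, 27.6 and 72.2. The peak in both sets was number 10 by width, 4156 bp at 11757170 to 11761325 of chromosome II. The other 9 of the highest-scoring set were between 841 and 1709 bp wide. Neither the inputs nor an annotation was used, so signal of input DNA or repeats at these peaks was not tested.

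Broad peaks were found on every chromosome at similar densities, lowest on chromosome II. Chromosomes X and I carried 3.39 (exact Poisson 95% interval 2.58 to 4.36) and 3.38 (2.52 to 4.45) broad peaks per Mb. Chromosomes IV, III and V followed with 3.26 (2.47 to 4.22), 3.12 (2.26 to 4.20) and 3.01 (2.31 to 3.85). Chromosome II had 2.23 (1.54 to 3.11). All 6 intervals overlap, so the order of neighbours in this list is not resolved by counting error. The narrower peaks were spread less evenly, from 43.1 per Mb on V to 72.3 per Mb on I.

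Set against the peaks of its own chromosome, V was the richest in broad peaks and II the poorest. On V 63 of 965 peaks were broad, or 6.53% (Wilson 95% interval 5.14 to 8.27), followed by 5.63% on IV (4.37 to 7.22) and 4.98% on X (3.89 to 6.36). The shares were 4.47% on I (3.42 to 5.83), 4.24% on III (3.17 to 5.67) and 3.56% on II (2.56 to 4.94). V held 20.5% of all broad peaks and 13.3% of the matched narrower peaks, a difference of 7.14 percentage points (Newcombe 95% interval 1.22 to 13.0). Chromosome V was singled out after its values were seen. With broad peaks counted from 500 bp the difference was 2.61 points (-1.02 to 6.25), and without peaks above 2000 bp or near chromosome ends 5.68 points (-0.72 to 12.1), so these intervals hold 0. Intervals cover the counting of peaks only, and neighbouring peaks are not independent, so they are too narrow. X held 19.5% of the broad and 18.5% of the matched narrower peaks, a difference of 0.97 points (-5.23 to 7.17).

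**Figure D2:**
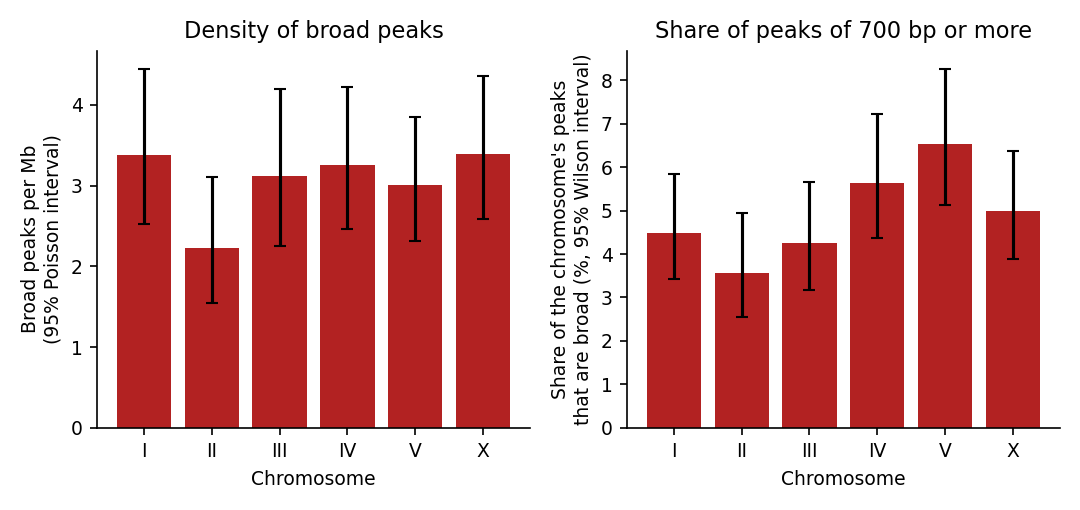
Broad peaks per Mb of each chromosome with exact Poisson 95% intervals (left) and the share of each chromosome's series-wide peaks that are broad, in percent, with Wilson 95% intervals (right). Density runs from 2.23 per Mb on II to 3.39 on X, and the share from 3.56% on II to 6.53% on V, and the intervals of the shares on II and V do not overlap.

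Within the autosomes, broad peaks were denser in the centres than in the arms, and so were narrower peaks. Arms and centres of worm chromosomes differ in recombination, repeats and gene content, and the centre was taken here as the middle 33.3% of each chromosome. Of the 248 autosomal broad peaks 101 lay in centres, or 40.7% (34.8 to 46.9), a density ratio of centre to arm of 1.37 (exact Clopper-Pearson 95% interval 1.06 to 1.78). The matched narrower peaks had 45.4% in centres (39.4 to 51.6), and all narrower peaks 39.5% (38.1 to 40.9). The difference of broad from matched narrower peaks was -4.69 points (-13.3 to 3.97), an interval that holds 0. With the middle 50% as centre it was -9.66 points (-18.0 to -1.19). With all narrower peaks weighted to the scores of the broad ones in 10 score classes, 39.2% of the narrower peaks were in centres, so the sign of the difference rested on how scores were matched.

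The chromosomes were unlike one another in this placement. For broad peaks the density ratio of centre to arm was 2.22 (1.28 to 3.88) on IV and 1.71 (1.003 to 2.88) on V. It was 1.19 (0.64 to 2.16) on I, 0.97 (0.47 to 1.89) on III and 0.72 (0.30 to 1.59) on II. The pooled excess in centres was thus not seen on II or III. On IV 30 of 57 broad peaks were central, 52.6% (39.9 to 65.0), against 38.8% of the matched narrower peaks (26.4 to 52.8). On II 9 of 34 were central, 26.5% (14.6 to 43.1), against 46.9% (33.7 to 60.6). Chromosome V had 46.0% of its broad peaks in the centre, I 37.3%, X 35.0% and III 32.6%. The broad peaks of II gathered toward its right end. Each chromosome was divided into 10 equal segments, numbered from its left end. Segments 1 and 2 of II held none, among 69 and 42 peaks. Segments 8, 9 and 10 held 7, 4 and 10, among 113, 62 and 116 peaks. Of the 10 in segment 10, 6 lay in 1 run of peaks at 13817611 to 13829753. On IV, segments 5 and 7 held 11 each, among 112 and 126 peaks, and segment 1 none of 101 peaks. Of the 11 in segment 5, 4 lay in 1 run at 8572588 to 8581718. The highest shares were on V, where segments 5, 8 and 9 held 16, 12 and 7, among 145, 77 and 42 peaks (11.0%, 15.6% and 16.7%). Segments 2, 7 and 10 of V held none, among 62, 121 and 65 peaks. These segments were picked out with their values known.

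Broad peaks often stood next to other peaks. Of the 308, 164 had another series-wide peak within 1 kb, edge to edge, or 53.2% (47.7 to 58.7), against 83 of the 308 matched narrower peaks, 26.9% (22.3 to 32.2). The difference was 26.3 percentage points (18.7 to 33.5). The median gap to the nearest peak was 878 bp for broad peaks and 2938.5 bp for matched narrower ones. Peaks within 1 kb on both sides were seen for 48 broad peaks, 15.6%, and for 8 matched narrower peaks, 2.60%. At a distance of 10 kb the shares came together, 84.4% and 80.2%. Measured between midpoints, which puts broad peaks at a disadvantage, 50.6% of broad and 36.04% of matched narrower peaks had another within 2 kb. Width and spacing come from the same peak call, which may break a long region into pieces or join them; its part in the result was not tested.

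**Figure D3:**
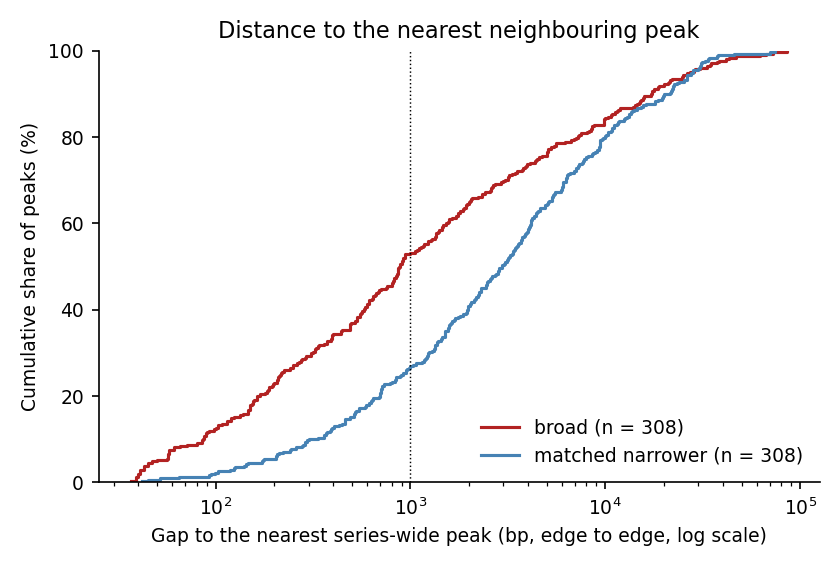
Cumulative share of peaks (percent) by the gap to the nearest series-wide peak in bp (edge to edge, log scale), for 308 broad and 308 matched narrower peaks; the dotted line marks 1 kb. The broad curve lies above the other at short gaps, 53.2% against 26.9% at 1 kb, and the curves meet beyond 10 kb.

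Most of the close neighbours were narrow. Of the 164 broad peaks with a neighbour within 1 kb, 62 had another broad peak there, and the 146 narrower neighbours had a median width of 283.5 bp. Joining peaks less than 1 kb apart placed the 308 broad peaks in 263 regions, of which 144 were a single peak. In 35 regions there were at least 2 broad peaks, 80 peaks in all. The nearest other broad peak was typically far away, with a median gap of 50532 bp, although 111 of the broad peaks, 36.04%, had one within 10 kb. Of 103 bins of 1 Mb, 15 held no broad peak. The fullest held 12, among 64 peaks at 8000001 to 9000000 of chromosome V.

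The run with the most broad peaks lay near the right end of chromosome II, at 13817611 to 13829753. Its 12143 bp held 10 peaks, of which 6 were broad, all between 1089 and 1204 bp wide with scores from 54.99 to 79.4. Each of the 6 was overlapped by 1 replicate 1 peak and by 1 to 3 replicate 2 peaks, which covered 44.7% to 70.9% of it. On chromosome IV, 8572588 to 8581718 held 5 peaks, 4 of them broad. Replicate 1 covered 9010 of its 9131 bp and replicate 2 covered none. On chromosome V, 3 broad peaks of 1417, 2713 and 2435 bp stood side by side at 10605636 to 10612436, under 1 replicate 1 peak of 6905 bp, while replicate 2 had 1 peak of 690 bp there. On X, 16929365 to 16938384 held 13 peaks, of which 1 was broad. These runs were picked with their values known.

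The replicate lists covered the broad peaks very differently. Replicate 1 covered 94.5% of their bases and replicate 2 covered 53.4%. Of the 308 broad peaks, 301 shared 1 bp or more with a replicate 1 peak, 97.7% (95.4 to 98.9), where 50.6% of all nuclear series-wide peaks did. Replicate 2 overlapped 245, 79.5% (74.7 to 83.7), where 26.1% of all peaks did. Both replicates overlapped 244, 79.2% (74.3 to 83.4), where 21.8% of all peaks did. A long peak is more easily overlapped, and the series has no further ChIP samples, so the series-wide list is no independent record of the same sites. All values of cover are descriptions for that reason.

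Beside narrower peaks of equal score, the share of bases covered was nearly the same in replicate 1 and higher for broad peaks in replicate 2. Replicate 1 covered 94.5% of broad-peak bases and 94.8% of matched narrower bases. Replicate 2 covered 53.4% of broad-peak bases and 41.8% of matched narrower bases. Both replicates overlapped 79.2% of the broad and 67.9% of the matched narrower peaks, a difference of 11.4 points (4.40 to 18.2). The difference was 10.2 points (2.75 to 17.6) without peaks above 2000 bp or near chromosome ends. It was 2.60 points (-5.25 to 10.4) where at least 50% of a peak had to be covered in both, 4.19 points (-0.74 to 9.09) after joining peaks less than 1 kb apart, and 2.27 points (-0.69 to 5.43) for replicate 1 alone, intervals that all hold 0. Among the peaks that replicate 2 overlapped at all, it covered a median of 57.1% of each broad peak and 58.8% of each matched narrower peak. When peaks above 2000 bp and those less than 1000 bp from a chromosome end were left out, replicate 2 covered 45.3% of broad-peak bases, and its excess over matched narrower peaks was 2.38 points in place of 11.6. In peaks above 2000 bp it covered 67.8%, and in broad peaks under 1000 bp 40.6%.

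Cover was highest in the middle of the peaks. Each peak was divided into 20 equal parts along the coordinate. In replicate 1, 72.3% of part 1 and 83.8% of part 20 were covered on average over the broad peaks, and 96.7% of part 10. In replicate 2 these values were 9.37% for part 1, 19.3% for part 20 and 61.4% for part 10. Matched narrower peaks reached 60.4% in part 10 in replicate 2, with 2.63% in part 1 and 14.1% in part 20. The low-coordinate end was less covered than the high-coordinate end in both lists and in both sets of peaks. Where a broad peak had 1 replicate 1 peak (278 peaks), the midpoint of that peak lay a median of 21.5 bp toward the high coordinate, and 17.5 bp in the 294 matched narrower peaks. In replicate 2 the shifts were 25.5 bp in 144 broad peaks and 19.3 bp in 202 matched narrower ones. The shift was thus shared by peaks of both kinds. The caller is named MACS v2 in the series-wide list and MACS in the replicate lists; the part of this difference in the shift was not tested.

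**Figure D4:**
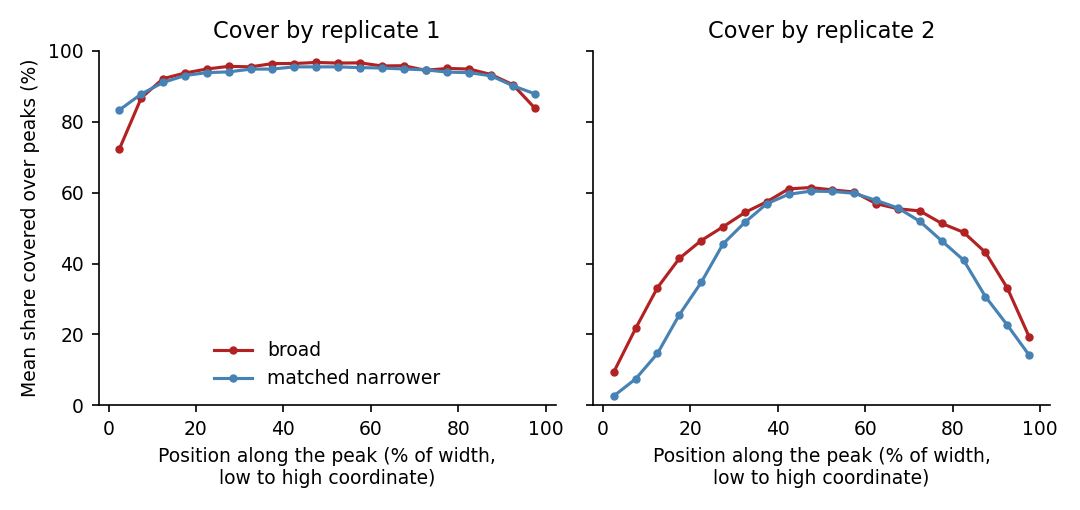
Mean share covered (percent) in 20 equal parts along the peak, from low to high coordinate, by replicate 1 peaks (left) and replicate 2 peaks (right), for broad and matched narrower peaks. Replicate 1 covers at least 90.4% of parts 3 to 19 of broad peaks, whereas replicate 2 cover rises to 61.4% in the middle of broad peaks and is 9.37% and 19.3% at their ends.

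Replicate 1 held the broad peaks as unbroken stretches and replicate 2 held many of them in pieces. A replicate peak that overlaps a series-wide peak is called a sub-peak here. In replicate 1, 7 broad peaks had no sub-peak, 278 had 1, 20 had 2 and 3 had 3. In replicate 2, 63 had none, 144 had 1, 68 had 2, 21 had 3 and 12 had 4 to 7. At least 2 sub-peaks were present in 7.47% of broad peaks in replicate 1 (5.03 to 11.0) and in 32.8% in replicate 2 (27.8 to 38.2). Among all 5981 narrower peaks these shares were 0.27% and 1.10%. Of the matched narrower peaks, 0 of 308 had 2 or more in replicate 1, which allows a share of up to 0.974% by the limit of 3 counts and 1.23% by the Wilson interval, and 9 had them in replicate 2, or 2.92% (1.54 to 5.46). A longer peak has more room for sub-peaks. Per kb, replicate 2 had 0.967 sub-peaks in broad peaks and 1.76 in matched narrower ones. This rate does not correct for length: 202 matched narrower peaks held exactly 1, and 1 sub-peak counts for more per kb in a short peak. The gaps were mostly short. The widest gap between sub-peaks had a median of 54 bp over 101 broad peaks in replicate 2 and 45 bp over 23 in replicate 1. With sub-peaks less than 100 bp apart joined, 10.7% of broad peaks still held 2 or more in replicate 2 and 1.62% in replicate 1.

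**Figure D5:**
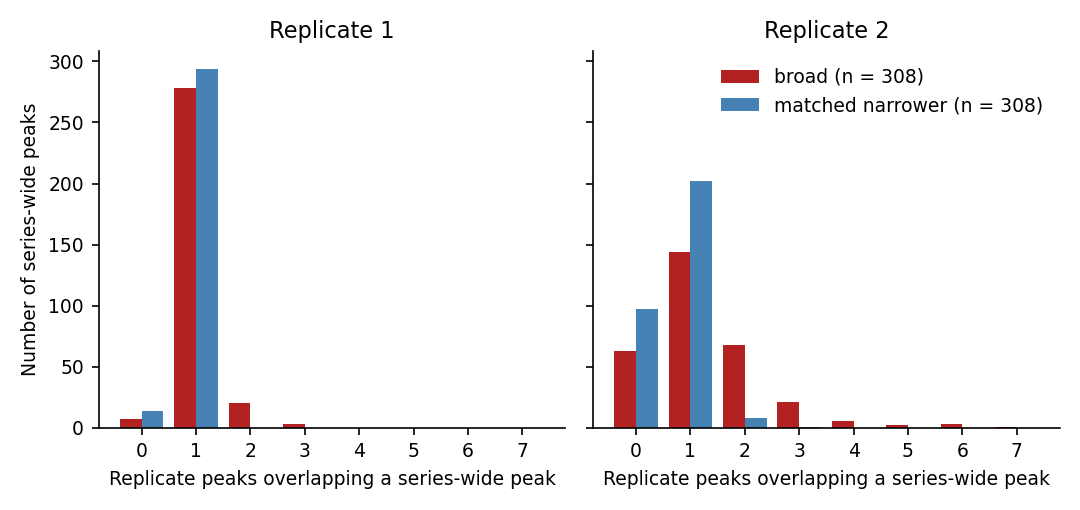
Number of series-wide peaks (vertical) by how many replicate peaks overlap them (horizontal), in replicate 1 (left) and replicate 2 (right), for 308 broad and 308 matched narrower peaks. In replicate 1 278 broad peaks carry 1 sub-peak, while in replicate 2 101 of them carry 2 or more, up to 7.

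The most divided broad peak lay on chromosome I at 4540356 to 4542095, where replicate 2 had 7 sub-peaks over 78.6% of its 1740 bp and replicate 1 had 2 over 95.3%. A peak of 3482 bp lay close to it, at 4544293 to 4547774, with 6 replicate 2 sub-peaks over 90.2%. A chromosome IV peak at 2754768 to 2756580 also had 6 in replicate 2, over 76.8%, and a single one in replicate 1. In replicate 1 the most divided were at 13613802 to 13615406 of I, 16547591 to 16548541 of V and 10366622 to 10369120 of X, with 3 sub-peaks each.

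Replicate 1 peaks could also reach past a broad peak. They went beyond its edges in 266 of 301 cases, by a median of 96 bp over all 301. For matched narrower peaks they did so more often, in 284 of 294 cases, by a median of 118 bp. In 45 of the 301 broad cases (14.95%, 11.4 to 19.4) they took in at least 1 further series-wide peak. Matched narrower peaks shared their replicate 1 peak in this way in 7 of 294 cases (2.38%, 1.16 to 4.83). In replicate 2 this happened for 2 of 245 broad peaks. A replicate 1 peak of at least 700 bp overlapped 88.0% of the broad peaks (83.9 to 91.2), against 15.3% of the matched narrower peaks (11.7 to 19.7). A replicate 2 peak of that width overlapped 20.8% of the broad peaks (16.6 to 25.7) and 0 of the 308 matched narrower ones (up to 0.974% by 3 counts and 1.23% by the Wilson interval). Read from the other side, 267 of the 441 replicate 1 peaks of 700 bp or more, or 60.5%, overlapped a broad series-wide peak, as did 79 of 81 in replicate 2, or 97.5%. Broad peaks were chosen at 700 bp, and the matched narrower peaks were at most 690 bp wide. The series has no other ChIP samples, so these contrasts in width follow largely from how the peaks were chosen. All 17 replicate 1 peaks and all 6 replicate 2 peaks that carried the score of 3100 overlapped broad peaks. The lists held 3121 and 1994 nuclear peaks, and the share of all these that overlapped a broad peak is not given here. A score of 3100 was the highest in replicate 2, whereas replicate 1 reached 3146.

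The widest and the highest-scoring broad peaks differed in how replicate 2 covered them. Every one of the 10 widest had 1 replicate 1 sub-peak, covering 99.1% to 100% of it. Replicate 2 covered a median of 94.1% of these 10 (lowest 22.6%, highest 98.8%). The 10 highest-scoring also had 1 replicate 1 sub-peak each, over 88.3% to 100%, whereas replicate 2 covered a median of 44.4% (lowest 22.6%, highest 71.1%). The lowest in both sets was the chromosome II peak at 11757170 to 11761325, the strongest of the list. Replicate 2 had 2 sub-peaks over 940 of its 4156 bp, one of them at the score of 3100. Replicate 2 covered at least 90% of 31 broad peaks, 10.1%, against 2.60% of matched narrower and 0.57% of all narrower peaks. Those 31 had a median width of 2219 bp, and 5 of the 26 on autosomes were in centres (19.2%, 8.51 to 37.9). Of all autosomal broad peaks 40.7% were in centres.

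Cover in replicate 2 went with the score of the broad peak. In 4 classes of 77 broad peaks each, ordered from low to high series-wide score, replicate 2 covered 22.5%, 51.8%, 63.5% and 69.4% of bases. It overlapped 49.4%, 75.3%, 94.8% and 98.7% of the peaks. Replicate 1 covered 86.8%, 95.2%, 96.9% and 97.4%. The rank correlation of score with replicate 2 cover was 0.45 and that of width with replicate 2 cover 0.28, over 308 peaks. With no further ChIP samples in the series, the series-wide score is not independent of the replicates, so these values are descriptions. Over the 244 peaks in both replicates, the highest sub-peak scores of the replicates had a rank correlation of 0.66.

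Only replicate 1 overlapped 57 broad peaks, 18.5%, against 27.6% of matched narrower and 29.3% of all narrower peaks. Most of these 57 broad peaks scored low. Their median score was 19.1 (lowest 4.47, highest 53.7), against 49.8 (5.39 to 244) for the 244 found in both, and their median widths were 831 and 981 bp. A neighbour within 1 kb was present for 66.7% (53.7 to 77.5) of the replicate 1-only peaks and 50.0% (43.8 to 56.2) of those in both. Of the autosomal ones, 49.0% (35.6 to 62.5) and 37.6% (31.1 to 44.6) were in centres. Over the 4 score classes of broad peaks, from low to high, 62.3%, 46.8%, 46.8% and 57.1% had a neighbour within 1 kb. The part of score in the contrast of neighbours was not tested. Length did not ensure a replicate 2 call. Among broad peaks above 2000 bp, 8 had no replicate 2 peak, although replicate 1 covered at least 97.7% of each. The longest of these was 3476 bp, at 8578243 to 8581718 of IV in the run described above, with a replicate 1 score of 699.9. Another, 3286 bp at 4025949 to 4029234 of X, had 2 replicate 1 sub-peaks scoring up to 2182. The only broad peak found in replicate 2 alone was at 8862501 to 8863875 of chromosome III, where replicate 2 covered 98.7% of 1375 bp. Peaks in replicate 2 alone were 0.32% of broad, 0.65% of matched narrower and 4.48% of all narrower peaks.

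Neither replicate list held a peak at 6 of the broad peaks, 1.95%, against 3.90% of matched narrower and 47.4% of all narrower peaks. Of these 6 broad peaks, 3 were on V, 2 on X and 1 on I. The widest were 1709 bp at 15226921 to 15228629 of X (score 13.7) and 1622 bp at 8700656 to 8702277 of V (score 11.3). Beside the V peak, 155 bp away, stood a peak of 1018 bp, at 8699483 to 8700500 (score 14.8). A peak of 769 bp at 17442091 to 17442859 of X scored 11.9. The exception in score was a peak of 807 bp at 15071648 to 15072454 of I, with 76.1, next to the widest broad peak and with no peak beyond it on the chromosome. It lay 251 bp from that neighbour. A score of 76.1 ranked 60th of the 308. Since no list gives read counts, a site absent from a replicate list cannot be called unbound.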

How the data were processed

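Sets of peaks were used, from ChIP replicates 1 and 2 and from the series as a whole; input data were not used here. The genome build is WormBase WS220, per the file headers. BWA and ce10 are named in the submitters' processing notes. The deposited score is the authors' own; not given in the sources used here are its scale, the call threshold, the control and any pooling of replicates. The lists hold no read counts, so depth is unknown. Replicates were taken from the sample titles, which do not say whether cultures were separate.

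Members and comparisons were chosen with earlier results of these data known. Chromosome lengths were the furthest peak end over the lists; a peak was placed by its midpoint. Matched narrower peaks were taken 1 to 1 by nearest log score without reuse, equal distances being settled in a fixed shuffled order. Intervals of differences treat matched peaks as unpaired. Named peaks were the 10 widest, the 10 of highest score, the most divided, the widest of each chromosome, those in neither replicate, and 5 on each side of 700 bp; others are marked in the text. No test was run, because peaks are not replicates. Procedures were tested on simulated lists. Python 3.11.15, numpy 2.4.6, pandas 2.3.3 and scipy 1.17.1 were used. No genome or annotation of WS220 was used, so no gene or sequence is named.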

Additional observations from a re-analysis of the deposited data

Results flagged for a closer look

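The mitochondrial genome was outside the comparisons, and 5 of its 11 series-wide peaks were 700 bp wide or more, a signal in data that the comparisons did not use. These 5 peaks were 712 to 1461 bp wide with scores from 13.7 to 31.7, and covered 4777 bp in all. Replicate 1 peaks covered 1888 bp of them, in 2 peaks, and replicate 2 peaks all 4777 bp. The input level was not analysed here.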

How the results depend on the processing

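Counting peaks from 500 bp as broad gave 765 of them, from 1000 bp 140, and after joining peaks less than 1 kb apart 788. In that order, at least 2 sub-peaks were held by 3.92%, 11.4% and 33.2% in replicate 1 and by 17.1%, 46.4% and 19.7% in replicate 2. Peaks in both replicates were 64.97% from 500 bp and 54.2% after joining, and 47.4% where at least 50% of a peak had to be covered. Joining also lowered the bases covered to 54.3% in replicate 1 and 21.2% in replicate 2, since joined regions include the gaps; replicate 2 then covered 11.4 points less of broad than of matched regions, a difference of -11.4 where it was 11.6, and the difference in replicate 1 was -27.6 where it was -0.29. After joining, no neighbour within 1 kb can remain, so that share has no value. The share with a near neighbour was 42.6% from 500 bp, 60.0% from 1000 bp, 39.1% among peaks above the median score, 37.01% within 500 bp and 64.6% within 2 kb. It exceeded that of matched narrower peaks in all 8 alternatives, by 14.6 to 30.7 points. The share in autosome centres was 47.4% from 1000 bp and 58.1% with the middle 50% as centre, which is larger by construction. With sub-peaks less than 100 bp apart joined, 1.62% in replicate 1 and 10.7% in replicate 2 held 2 or more. Overlap was 79.5% without replicate 1 and 97.7% without replicate 2. The excess on V over matched narrower peaks ran from 2.61 to 7.14 points in 6 alternatives. Its interval held 0 from 500 bp, from 1000 bp (-1.74 to 16.0) and without the widest and end peaks. The midpoint distance and the alternatives for V were added after the data were seen. No cause of these changes was tested. No paired analysis was possible because only ChIP and input share replicate numbers, and no comparison between them was made here. The lists give no depth, so its effect is unknown.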
